A study of Rattus norvegicus with 15 samples.

Results

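Gene expression in the jejunum of diabetic Goto-Kakizaki (GK) rats that had undergone a sham operation was compared with that of Wistar rats. GK rats, which descend from Wistar stock, develop type 2 diabetes by inheritance without being obese. All rats were male. The 5 GK-Sham-PF rats were operated on at 16 wk of age, when the jejunum was cut at 16 cm from the ligament of Treitz and rejoined without rearrangement, and were then pair-fed to the intake of rats with gastric bypass. They also received the liquid diet, analgesic and antibiotic given after an operation. The 5 Wistar rats were age-matched, had no operation and ate freely. The matching segment of jejunum was taken 14 wk postoperation after an overnight fast, and its RNA was hybridized to 1 array per rat. Strain, diabetes, the sham operation with its care, and food intake therefore differed together and cannot be told apart in this comparison. A further group of 5 diabetic rats, GK-S-30, had a Roux-en-Y gastric bypass with a Roux limb of 30 cm. Its arrays entered the estimate of the spread, and its means are given beside some genes only as a further level.

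The 10 arrays of the comparison are 10 of the 15 arrays of the series. Of 17389 named genes with a probe, 13049 were bright enough on the arrays to be tested, each by its brightest probe. Values are log2 intensities of 1 probe, normalized so that every array has the same distribution, and a difference is given as GK-Sham-PF minus Wistar. A difference of 1 on this scale is a 2-fold change. Levels of different genes were not compared, because a probe's brightness also depends on its sequence.

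The jejunum absorbs sugar, amino acids and fat through a layer of enterocytes that is renewed from the crypts. The same cells oxidize, conjugate and pump back foreign compounds and steroids, and they secrete mucus, antibody and defence proteins together with goblet, Paneth and immune cells. Sialic acids cap the sugar chains of mucins and cell surfaces, and major histocompatibility complex (MHC) proteins, named RT1 in the rat, display peptides to T cells. Inbred strains commonly differ in MHC genes, in clustered enzyme families and in the sequences that array probes were designed to match.

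Markers of the enterocyte were measured well above background on all 10 arrays. None of the 18 tested was called by limma (1 at an unadjusted p under 0.05, and 2 by the methods' comparison of the 3 groups with Tukey's test, without adjustment over genes), their median difference was 0.00, and the mean level of the list ran from 14.78 to 15.27 in Wistar and from 14.80 to 15.39 in GK-Sham-PF. Fabp2, the intestinal fatty acid binding protein, lay between 17.92 and 18.06 in Wistar and between 17.68 and 17.92 in GK-Sham-PF. The labels name the tissue only as an intestinal segment. In whole tissue, fewer cells of a type and less RNA per cell cannot be told apart.

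Arrays were scanned on slides of up to 4 arrays. Wistar replicates 2 to 5 were on slide A, Wistar 1 was on slide B with GK-Sham-PF 1 to 3, and GK-Sham-PF 4 and 5 were on slide C with 2 GK-S-30 arrays. Only slide B held both groups, so a difference within it (the mean of 3 GK-Sham-PF arrays minus 1 Wistar array) is printed as the within-slide value. A fit with slide as a fixed block likewise compares the groups only within slide B, against Wistar 1 alone. Whether the calls lost in that fit reflect this smaller comparison or slide was not tested. The brightness before normalization, taken as the 75th percentile of the processed signal, was 206.6 in Wistar 3 and 208.4 in GK-Sham-PF 5 against 301.9 to 349.2 in the other 8 arrays. The probes well above background made up 69.1 to 74.8% of each array.

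The difference between the groups was broad and close to even in its directions. Of the 13049 genes, 1158 (8.87%) were called at an adjusted p under 0.05 (limma with Benjamini-Hochberg adjustment), 550 (4.21%) higher and 608 (4.66%) lower in GK-Sham-PF. The counts of each list below stand against these shares of 4.21% and 4.66%. A change of 2-fold or more was called for 329 genes (2.52%), 170 of them higher and 159 lower. In 1265 genes (9.69%) all 5 arrays of 1 group lay above all 5 arrays of the other, and 896 of these were called. The median absolute difference was 0.71 in the called genes and 0.15 over all genes tested. The differences of 94 called genes were 4-fold or more and those of 14 were 16-fold or more. With slide as a fixed block, the same adjusted p called 181 genes, 88 higher and 93 lower, of which 172 were among the 1158. Some calls near the threshold were lost when 1 of the 10 arrays was left out; the arrays are given beside genes named for such a call. The p-values set a difference against the spread between arrays of a group, each of 1 rat, and the main fit has no term for slide. Because slide and group largely coincided, any difference between slides also enters the difference tested. It cannot be fully told apart from the difference between the groups. Within slide B, 548 of the 550 genes called higher and 606 of the 608 called lower differed in the same direction. The arrays of slide B also entered the calls, so part of this agreement was built in.

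**Figure D1:**
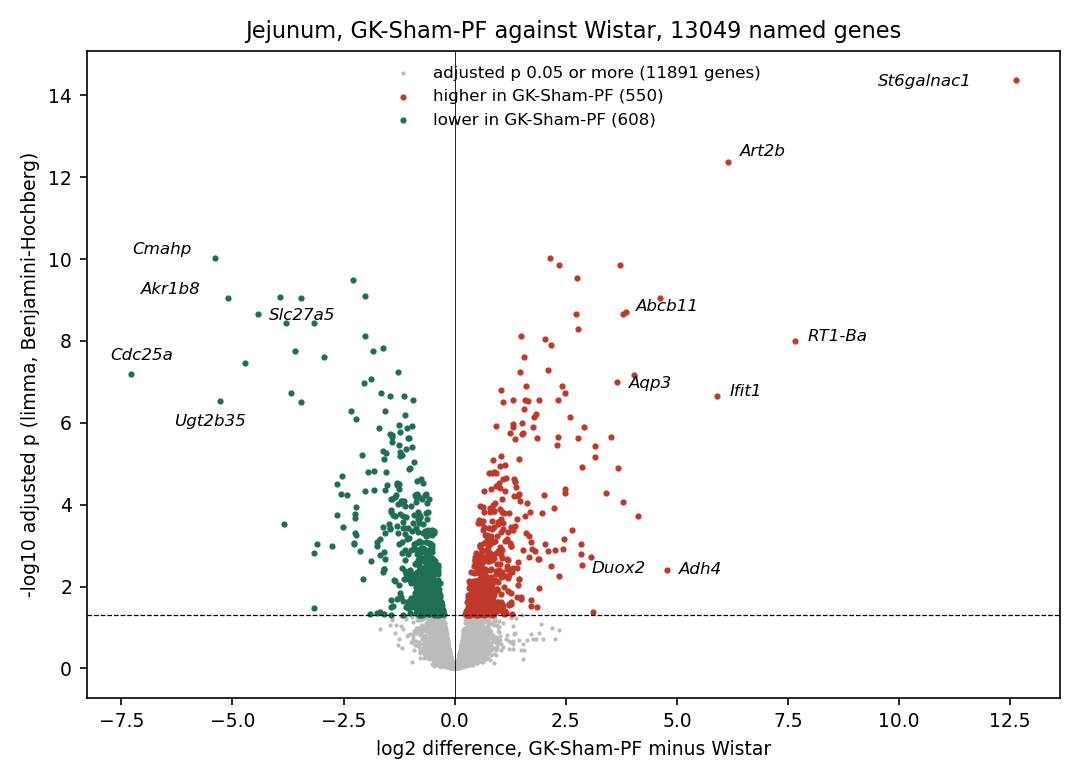
The plot sets the log2 difference of each of the 13049 genes (GK-Sham-PF minus Wistar, horizontal axis) against -log10 of its adjusted p from limma (vertical axis). Called genes number 550 on the right and 608 on the left, and St6galnac1 on the right and Cdc25a on the left stand farthest from 0.

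A few genes were measured in 1 group and not above background in the other. A gene counted here when every probe for it was not well above background on all 5 arrays of 1 group and a probe was well above background on all 5 of the other. There were 18 such genes in GK-Sham-PF, 17 of them called, and 9 in Wistar, 7 of them called. The definition itself set the groups apart, so a share of calls above the 8.87% of all genes was built in. For these genes the fold is a lower bound, set against the dimmest probe that was well above background on each array. The first 30 bases of the 60-base probes of the 3 largest bounds are shown because each of these genes rests on a single probe. Positions are those of the array files, in the rn4 build.
St6galnac1 (chr10:106872032-106872091): aaacggctcatcttttacataaaccatgac
Ifit1 (chr1:238610083-238610142): tatacaggaattggcacatcaggccatttg
Cdc25a (chr8:114254799-114254857): attattttattattgttttaattcctcaag

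St6galnac1, an enzyme that adds sialic acid to the first sugar of mucin chains, showed the largest fitted difference of all genes tested. Its log2 values in Wistar 1 to 5 were 2.33, 1.26, 1.31, 1.26 and 1.25, and in GK-Sham-PF 1 to 5 they were 14.21, 14.15, 14.28, 14.17 and 13.71. Every GK-Sham-PF array was thus bright and no Wistar array was well above background. The level was at least 1755-fold higher in GK-Sham-PF (fitted difference 12.62, adjusted p = 4.27e-15, within-slide value 11.89). The GK-S-30 mean was 13.59, also high.

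Ifit1, an interferon-induced protein that binds foreign RNA, gave 1.06, 3.02, 1.04, 1.07 and 1.08 in Wistar 1 to 5. It gave 7.63, 7.22, 7.26, 7.09 and 7.60 in GK-Sham-PF 1 to 5. The groups were far apart, and the level was at least 16.4-fold higher in GK-Sham-PF (fitted difference 5.91, SE 0.44, adjusted p = 2.2e-07).

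Cdc25a, the phosphatase that releases cyclin-dependent kinases for entry into S phase, changed in the opposite direction. It gave 9.02, 8.87, 8.80, 9.04 and 9.17 in Wistar 1 to 5, and 1.05, 1.84, 1.69, 1.85 and 2.04 in GK-Sham-PF 1 to 5. No GK-Sham-PF array was well above background, and the level was at least 53.6-fold lower there (fitted difference -7.29, SE 0.48, adjusted p = 6.46e-08). Its GK-S-30 mean was 2.60. The list of cell cycle and DNA replication genes does not hold Cdc25a, and it does not cover every gene of these processes. Of its 33 tested genes, 1 was called, Cdk2 (0.56, adjusted p = 0.0127), against 8.87% of all genes. The median of that list was 0.08.

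The other genes measured only in GK-Sham-PF were nearer to the background. They included Crtac1, a cartilage matrix protein (at least 4.3-fold), Vom2r10, a vomeronasal receptor (at least 3.63-fold), Pigz, a mannosyltransferase of membrane anchors (at least 3.1-fold), and Spp1, the matrix protein osteopontin (at least 2.61-fold). Mpa2l, a guanylate-binding protein, Ttpa, the vitamin E transfer protein, Cct8l2 and Taf1a had bounds of 2.4-fold, 1.92-fold, 1.87-fold and 1.62-fold. On the Wistar side St8sia6, a second sialic acid transferase, was at least 4.56-fold higher in Wistar, with values of 4.71 to 6.28 in Wistar and 1.36 to 2.60 in GK-Sham-PF. Ldhc and Adcy10, both best known from sperm, had bounds of 3.23-fold and 2.8-fold, and those of Itih1, Tnfsf4 and Il9r were 1.99-fold, 1.8-fold and 1.78-fold. Ifit3 and Qrfp also met the definition in Wistar but were not called.

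The 15 largest rises among the called genes without overlap, ordered by the fitted difference, ran from 3.16 to 12.62 (within-slide values 2.60 to 11.89). For St6galnac1, Ifit1, Vom2r10 and Crtac1 no Wistar array was well above background, so their fitted sizes, and with them their places, are uncertain and the bounds given above apply. Besides St6galnac1 and Ifit1, they were RT1-Ba, Art2b, Adh4, Amy2a3, Spaca3, Adgrb1, Abcb11, S100a8, Vom2r10, Chmp1b2, Aqp3, Fabp12 and Crtac1. All 15 stayed called whichever 1 of the 10 arrays was left out, and 12 of 15 were called with slide as a fixed block. 11 of the 15 rest on 1 probe. RT1-Ba, S100a8 and Chmp1b2 were well above background on 1 of 5 Wistar arrays, and Adh4 and Adgrb1 on 2 of 5. The sizes of these rises are therefore uncertain too.

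RT1-Ba, the alpha chain of the class II molecule RT1.B, had a large rise at 1 probe and no signal at another. The measured probe gave 1.16, 1.53, 2.33, 4.07 and 2.90 in Wistar 1 to 5 and 10.41, 10.23, 10.06, 10.46 and 9.17 in GK-Sham-PF 1 to 5. The groups did not overlap (7.67, SE 0.43, adjusted p = 9.92e-09), and 1 of 5 Wistar arrays was well above background. The gene's other probe was not above background on any of the 15 arrays. Its values were 1.33 to 1.53 in Wistar and 1.29 to 1.67 in GK-Sham-PF. The probes align to each other over most of their length, and their sequences are shown with capitals at the positions where they differ. Over 57 aligned columns, 49 bases were identical, 5 were mismatched and 3 were gaps.
RT1-Ba, measured probe (no position in the files): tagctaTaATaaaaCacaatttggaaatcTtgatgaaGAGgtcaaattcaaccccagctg
RT1-Ba, other probe (chr20:4700973-4701032): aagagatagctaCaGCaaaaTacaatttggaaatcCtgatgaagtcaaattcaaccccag

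A difference in sequence between the strains under a probe and a difference in RNA level cannot be told apart on these arrays. This holds for every gene that rests on 1 probe, and the genes with several probes are compared further on.

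Art2b, which the files list as Art2, encodes an ADP-ribosyltransferase on the surface of rat T cells. It gave 9.52, 9.33, 9.42, 9.55 and 9.63 in Wistar 1 to 5 and 15.84, 15.80, 15.97, 15.57 and 15 in GK-Sham-PF 1 to 5. The rise of 6.15 (SE 0.15, 70.9-fold, adjusted p = 4.28e-13) was repeated at a second probe, with a difference of 6.16. The T cell receptor genes were not called: Cd3d differed by 0.16 (adjusted p = 0.631), Cd3e by 0.21 (adjusted p = 0.531) and Cd3g by -0.06 (adjusted p = 0.853). The GK-S-30 mean of Art2b was 15.20.

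Transporters of bile salt and water were among the large rises. Abcb11, the bile salt export pump, gave 3.60, 4.37, 2.98, 3.70 and 3.85 in Wistar 1 to 5 and 7.25, 7.39, 7.48, 7.53 and 7.76 in GK-Sham-PF 1 to 5. Aqp3, a channel for water and glycerol, gave 8.89, 9.45, 9.73, 8.73 and 8.92 in Wistar 1 to 5 and 12.64, 12.81, 12.88, 12.76 and 12.88 in GK-Sham-PF 1 to 5. Neither gene had overlapping groups. Abcb11 rose 13.8-fold (adjusted p = 2.14e-09, within-slide value 3.78) and Aqp3 12.5-fold (adjusted p = 1e-07, within-slide value 3.88).

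Spaca3, a lysozyme-like protein known from sperm, gave 4.96, 5.66, 5.87, 5.19 and 4.94 in Wistar 1 to 5 and 8.87, 8.84, 9.43, 9.63 and 10.00 in GK-Sham-PF 1 to 5. It rose by 4.03 (SE 0.27, adjusted p = 6.87e-08). Fabp12, a fatty acid binding protein, ran from 3.52 to 4.52 in Wistar and from 7.03 to 8.54 in GK-Sham-PF. Adh4, an alcohol dehydrogenase that also acts on retinol, varied widely in Wistar, from 1.13 to 7.57, and lay between 7.84 and 8.92 in GK-Sham-PF (4.77, SE 0.94, adjusted p = 0.00385). With slide as a fixed block its adjusted p was 0.251.

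Both amylases rose, and the other tested markers of pancreatic acinar cells were not called. Pnliprp2, a lipase outside that list, was called lower and is given further on. Amy2a3, listed as Amy2, gave 4.24, 5.75, 4.37, 4.44 and 2.87 in Wistar 1 to 5 and 8.37, 9.03, 8.35, 7.74 and 8.81 in GK-Sham-PF 1 to 5. Amy1, the salivary type, ran from 2.96 to 4.53 in Wistar and from 5.77 to 6.98 in GK-Sham-PF. The 2 amylases rose by 4.12 (SE 0.57, adjusted p = 0.000189) and 2.46 (adjusted p = 0.000696), and because they are close in sequence their probes may read each other's RNA. Of 8 tested markers of pancreatic acinar cells 1 was called, Amy2a3, and the mean level of the list ran from 5.96 to 6.53 in Wistar and from 6.73 to 7.09 in GK-Sham-PF. Without a call were Prss1 (0.89, adjusted p = 0.439), Prss2 (-0.15, adjusted p = 0.681), Ctrb1 (-0.14, adjusted p = 0.771) and Cel (0.01, adjusted p = 0.98). With slide as a fixed block the adjusted p of Amy2a3 was 0.0941.

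The 15 largest falls in the fitted difference ran from 3.17 to 7.29 (within-slide falls 3.26 to 7.49), and for Cdc25a and St8sia6 the bounds above apply. Besides Cdc25a and St8sia6, they were Cmahp, Ugt2b35, Akr1b8, Lypd8l2, Slc27a5, Cpox, Ugt2b7, Tlcd4, Ugt2b15, Akr1c12, Ephx2, Cml3 and Or5b123b. All 15 stayed called without any 1 of the 10 arrays and 13 of 15 with slide as a fixed block. 13 rest on 1 probe. Cml3 was well above background on 2 of 5 GK-Sham-PF arrays, so the size of its fall is uncertain.

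Cmahp, listed as Cmah, is the gene of the enzyme that turns the sialic acid Neu5Ac into Neu5Gc. It gave 13.96, 14.41, 14.39, 13.87 and 14.03 in Wistar 1 to 5 and 9.49, 8.87, 8.63, 8.39 and 8.38 in GK-Sham-PF 1 to 5. Every GK-Sham-PF array lay below every Wistar array (-5.38, SE 0.19, 41.7-fold, adjusted p = 9.5e-11). With St6galnac1 and St8sia6, it made 3 genes of sialic acid among the 30 largest changes, a grouping chosen after the values were seen.

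Slc27a5 and Cpox were among the large falls. Slc27a5, which activates bile acids and long-chain fatty acids, gave 8.80, 9.07, 8.76, 9.22 and 7.99 in Wistar 1 to 5 and 4.26, 4.62, 4.47, 4.30 and 4.07 in GK-Sham-PF 1 to 5. Cpox, an enzyme of heme synthesis, gave 7.45, 7.47, 7.71, 7.71 and 7.75 in Wistar 1 to 5 and 3.87, 3.64, 3.95, 3.88 and 3.08 in GK-Sham-PF 1 to 5. Both were without overlap. Slc27a5 fell by 4.42 (SE 0.22, adjusted p = 2.14e-09), and its second probe was well above background on 5 of 5 Wistar arrays and 0 of 5 GK-Sham-PF arrays, so that no exact size can be read there. Cpox fell by 3.93 (SE 0.18, adjusted p = 8.24e-10), with 3 of 5 GK-Sham-PF arrays well above background.

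Ephx2, the soluble epoxide hydrolase that opens fatty acid epoxides, gave 9.45, 9.74, 9.46, 9.46 and 9.24 in Wistar 1 to 5 and 5.76, 5.97, 6.44, 6.14 and 5.75 in GK-Sham-PF 1 to 5. It fell by 3.46 (SE 0.16, adjusted p = 9.15e-10). Lypd8l2, named after Lypd8, a protein that keeps bacteria off the epithelium, lay between 11.67 and 13.80 in Wistar and between 7.78 and 8.41 in GK-Sham-PF (-4.71, adjusted p = 3.56e-08). Tlcd4, listed as Tmem56, fell by 3.79 at 1 probe and by 3.62 at another. Or5b123b, an olfactory receptor, fell by 3.17 (adjusted p = 3.55e-09).

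**Figure D2:**
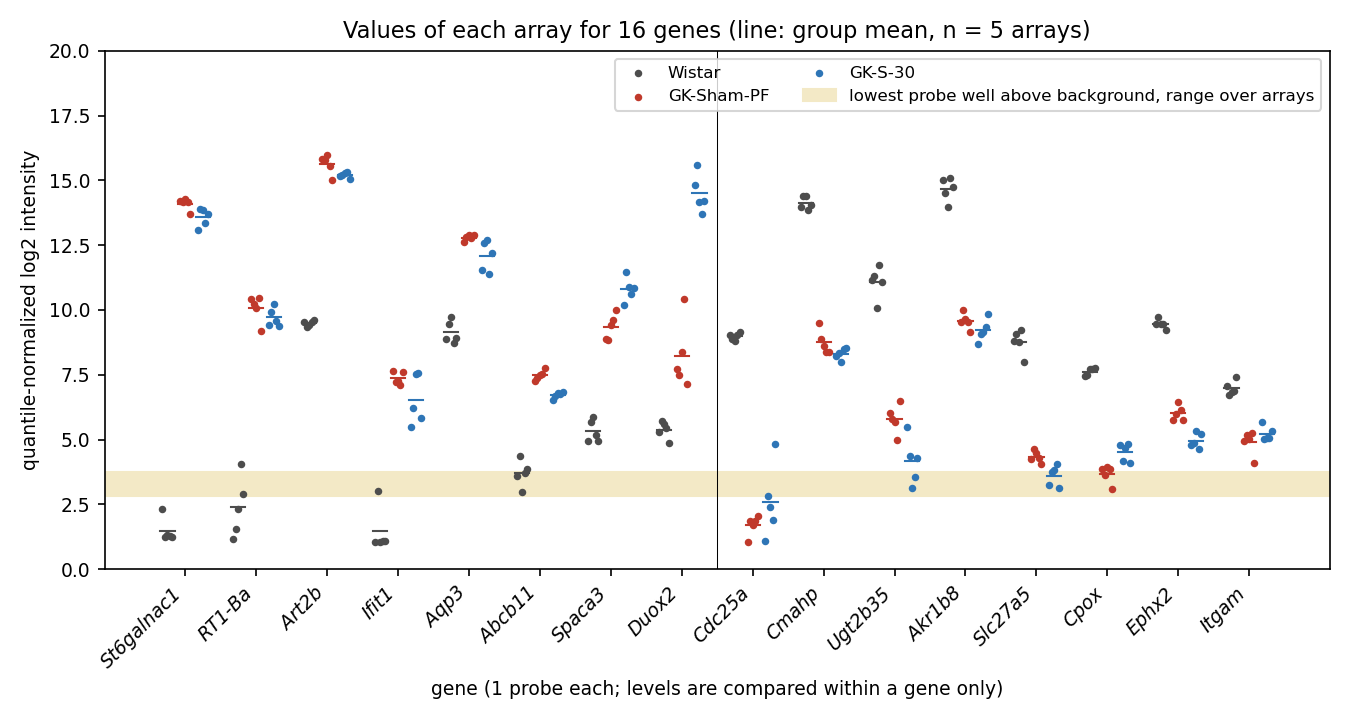
Quantile-normalized log2 intensity (vertical axis) of 16 genes in each of the 15 arrays, with 8 rises to the left of the vertical line and 8 falls to the right. Points are single arrays (GK-S-30 in blue, GK-Sham-PF in red, Wistar in grey), short lines are group means (n = 5 arrays), and the shaded band spans, over the arrays, the lowest probe well above background. The Wistar and GK-Sham-PF points do not overlap in any of the 16 genes.

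Enzymes that conjugate foreign compounds and steroids were mostly lower in GK-Sham-PF. Of 43 tested members of the phase II conjugation list, 18 were lower and 3 higher, against 4.66% and 4.21% of all genes, and the median was -0.36 against 0.01 over all genes. The mean level of the list lay between 9.99 and 10.33 in Wistar and between 9.44 and 9.68 in GK-Sham-PF, without overlap. With slide as a fixed block, 5 were lower and 1 higher. The lower count was 18 without the 2 dim arrays and 13 to 18 with any 1 array left out.

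The UDP-glucuronosyltransferases of family 2, which attach glucuronic acid to steroids, bile acids and drugs, carried the largest of these falls. Ugt2b35, listed as Ugt2b36, gave 11.15, 11.31, 10.06, 11.73 and 11.07 in Wistar 1 to 5 and 6.01, 5.78, 5.67, 4.96 and 6.49 in GK-Sham-PF 1 to 5. Ugt2b15, listed as Ugt2b5, gave 9.29, 9.56, 8.88, 9.50 and 9.05 in Wistar 1 to 5 and 5.89, 5.83, 5.35, 5.16 and 6.13 in GK-Sham-PF 1 to 5. Ugt2b35 fell 38.9-fold (adjusted p = 3.01e-07) and Ugt2b15 12-fold (adjusted p = 1.76e-08), each without overlap. Ugt2b7 fell by 3.83 (adjusted p = 0.00029, and 0.0883 with slide as a fixed block), Ugt2a3 by 2.50, Ugt2b37 by 1.52 and Ugt2b10 by 1.47. Members of this family are close in sequence, so that a probe may read more than 1 of them.

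Glutathione transferases, sulfotransferases and N-acetyltransferases moved by smaller amounts. Gstm3 fell by 1.23, Gstm5 by 0.83, Gstt3 by 1.56 and Gsta4 by 0.66, and Gsta3 fell by 1.68 (no call without Wistar 1, 2, 4 or 5 or GK-Sham-PF 1 or 2) with values of 12.76 to 13.95 in Wistar and 10.16 to 12.65 in GK-Sham-PF. Sult1c2, a sulfotransferase, fell by 1.34 (adjusted p = 6.32e-05), and Nat1, an arylamine acetyltransferase, fell by 0.50 (adjusted p = 0.0263, no call without Wistar 2, 3 or 5 or GK-Sham-PF 2 or 4). The 3 higher members were Ces2c and Ces1d, carboxylesterases that cleave ester drugs and lipids, and Gstm4, and Ces1d kept its call only without Wistar 1 or GK-Sham-PF 1. Ces2c gave 9.13, 9.02, 8.85, 9.35 and 9.64 in Wistar 1 to 5 and 11.93, 11.93, 11.86, 11.73 and 10.98 in GK-Sham-PF 1 to 5, a 5.6-fold rise (adjusted p = 1.84e-07).

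Aldo-keto reductases and retinol enzymes changed in both directions. Of 33 tested alcohol, aldehyde and aldo-keto dehydrogenases, 4 were higher and 5 lower, against 4.21% and 4.66% of all genes. The median was -0.22. The lower count was 3 without Wistar 1 and 3 without Wistar 4. Akr1b8, which reduces aldehydes from lipids, gave 15, 14.50, 13.98, 15.10 and 14.73 in Wistar 1 to 5 and 9.52, 9.99, 9.64, 9.53 and 9.14 in GK-Sham-PF 1 to 5. That fall of 5.10 (SE 0.23, 34.2-fold, adjusted p = 9.09e-10) stood against rises of its relatives Akr1b10 (2.47, adjusted p = 4.11e-05) and Akr1c19 (1.84, adjusted p = 2.37e-06). Akr1b10 lay between 1.07 and 2.90 in Wistar, near background. Of the retinol dehydrogenases, Rdh7 fell by 2.24 (adjusted p = 0.000169) and Rdh16 rose by 1.58 (adjusted p = 0.00019).

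Cytochromes P450, which oxidize drugs and fatty acids, were called in 4 of 33, against 8.87% of all genes. Cyp3a18 gave 13.16, 12.80, 12.51, 13.16 and 13.05 in Wistar 1 to 5 and 10.18, 10.98, 10.21, 9.47 and 10.64 in GK-Sham-PF 1 to 5, a fall of 2.64 (adjusted p = 0.000183). Its relative Cyp3a62 was higher, by 1.20 (adjusted p = 0.0132). Cyp4f5, a fatty acid hydroxylase, rose by 1.52 (adjusted p = 1.02e-06), with 10.69 to 11.13 in Wistar and 11.97 to 12.51 in GK-Sham-PF. Cyp2c6v1 fell by 1.05 (adjusted p = 0.0267), with no call without Wistar 4 or 5 or without GK-Sham-PF 1, 2, 3 or 4.

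Antioxidant genes were called in both directions. Of 27 tested NRF2 and glutathione genes 4 were higher and 1 lower, against 4.21% and 4.66% of all genes, with a median of -0.02. Gpx2, the gut glutathione peroxidase, rose by 1.20 (adjusted p = 0.00376), with 9.47 to 10.13 in Wistar and 10.20 to 11.82 in GK-Sham-PF, and the mean in GK-S-30 was 14.03. Prdx1, a peroxiredoxin, rose by 0.67 and Gpx3, a secreted peroxidase, by 0.62, whereas the mitochondrial superoxide dismutase Sod2 fell by 0.61 (adjusted p = 0.000537).

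Of 29 tested members of the MHC class I and antigen processing list, 12 were higher and 2 lower, against 4.21% and 4.66% of all genes. The other 15 were without a call, and the median was 0.36. The mean level of the list was 11.89 to 12.08 in Wistar and 12.21 to 12.53 in GK-Sham-PF. With slide as a fixed block, 5 were higher and none lower. RT1-CE16, a class I heavy chain, gave 12.21, 12.28, 12.10, 12.30 and 12.41 in Wistar 1 to 5 and 13.73, 13.58, 13.68, 13.57 and 13.32 in GK-Sham-PF 1 to 5, a 2.49-fold rise (adjusted p = 1.29e-06).

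RT1-S3, RT1-CE3, RT1-M3-1, RT1-A2, RT1-A1, RT1-CE2 and RT1-CE4 rose by 0.63 to 1.53. The heavy chains RT1-CE10 (-1.32, adjusted p = 5.92e-05) and RT1-N2 (-1.28, adjusted p = 9.52e-05) fell. The heavy chain genes are near-identical copies and differ between strains, so which of them a probe read is uncertain. Of the genes that cut and trim peptides, the immunoproteasome subunits Psmb9 (0.89, adjusted p = 1.56e-05) and Psmb8 (0.57, adjusted p = 0.0185, no call without Wistar 5 or without GK-Sham-PF 3), the proteasome activator Psme2 (0.47, adjusted p = 0.00247) and the trimming peptidase Erap1 (0.37, adjusted p = 0.00431) rose.

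Of 13 tested class II genes, 3 were higher and none lower, against 4.21% and 4.66% of all genes. Beside RT1-Ba, they were the class II beta chains RT1-Bb, with 12.73 to 12.93 in Wistar and 13.52 to 13.96 in GK-Sham-PF (0.98, adjusted p = 0.000304), and RT1-Db2, with 11.02 to 11.31 and 11.82 to 12.23 (0.88, adjusted p = 0.000358). The alpha chain RT1-Da differed by 0.23 (adjusted p = 0.456).

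Interferon-stimulated genes split. Of 41 tested, 4 were higher and 8 lower, against 4.21% and 4.66% of all genes, with a median of -0.08. With slide as a fixed block, 1 was higher and none lower. The lower count was 5 without Wistar 5 and 5 without GK-Sham-PF 2. Oas1a, which makes the signal that starts RNA decay, gave 13.59, 13.39, 13.49, 13.58 and 14.01 in Wistar 1 to 5 and 12.57, 11.89, 12.80, 12.54 and 12.43 in GK-Sham-PF 1 to 5 (-1.17, adjusted p = 0.00019). Isg15, a ubiquitin-like protein, fell by 1.67 (adjusted p = 0.00172), its protease Usp18 by 1.37 (adjusted p = 0.0068) and the RNA-sensing kinase Eif2ak2 by 1.16 (adjusted p = 0.000267), with a difference of -0.17 at its other probe. The higher genes were Ifit1, Ifi27 (1.00, adjusted p = 0.000273), Ifi27l2b and Isg20, the last with a call left only without GK-Sham-PF 5.

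Mucosal defence genes were called mostly on the higher side. Of 32 tested, 8 were higher and 1 lower, against 4.21% and 4.66% of all genes, with a median of 0.23 and a mean level of 8.13 to 8.47 in Wistar and 8.55 to 9.03 in GK-Sham-PF. Limma with slide as a fixed block called none of them (9 at an unadjusted p under 0.05), and the adjusted Tukey test called 4 higher and 1 lower. S100a8 and S100a9 are the subunits of calprotectin, a metal-binding protein of neutrophils and stressed epithelium. S100a8 gave 1.59, 3.55, 1.23, 1.27 and 1.37 in Wistar 1 to 5 and 5.29, 5.35, 5.81, 5.36 and 6.11 in GK-Sham-PF 1 to 5 (adjusted p = 8.42e-05, and 0.0783 with slide as a fixed block). It was well above background on 1 of 5 Wistar arrays, so the size of its rise (fitted difference 3.78) is uncertain. S100a9 gave 4.97, 6.16, 4.88, 4.49 and 4.81 in Wistar 1 to 5 and 6.71, 7.09, 7.11, 6.92 and 7.64 in GK-Sham-PF 1 to 5 (2.03, adjusted p = 0.0009). Neither overlapped, and the other probes of S100a8 were not above background on any array.

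Duox2, the epithelial oxidase that makes hydrogen peroxide, gave 5.29, 5.71, 5.60, 5.45 and 4.88 in Wistar 1 to 5 and 7.71, 7.50, 8.39, 10.41 and 7.14 in GK-Sham-PF 1 to 5. It rose 7.18-fold (adjusted p = 0.00162, and 0.268 with slide as a fixed block), with GK-Sham-PF 4 the highest, and its GK-S-30 mean was 14.50. Lcn2, which binds bacterial siderophores, rose by 1.91 (adjusted p = 0.011), Tlr4, the lipopolysaccharide receptor, by 0.90 (adjusted p = 0.0124) and Pigr, which carries IgA across the epithelium, by 0.74 (adjusted p = 0.00683). The chemokine Ccl28, which draws IgA plasma cells, fell by 1.42 (adjusted p = 7.3e-05). The antibacterial lectin Reg3g was 2.26 higher without a call (adjusted p = 0.191), its GK-Sham-PF arrays running from 10.08 to 16.55.

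The list of bile acid genes held a large change in each direction. Slc27a5, which fell by more, was not on this list. Of 16 tested, 2 were higher, Abcb11 and Abcb4 (a call left only without Wistar 5 or GK-Sham-PF 1 or 3), and 1 lower. The shares over all genes were 4.21% higher and 4.66% lower. Against the rise of Abcb11, Slc10a2, the sodium-dependent bile acid uptake carrier of the gut, gave 6.23, 7.19, 6.74, 6.82 and 7.49 in Wistar 1 to 5 and 4.48, 4.03, 5.16, 4.52 and 4.21 in GK-Sham-PF 1 to 5. Its fall of 2.41 (SE 0.30, 5.32-fold, adjusted p = 5.84e-05) was 1.68 within the slide, and its mean in GK-S-30 was 7.92. Fabp6, the bile acid binding protein of the ileum, differed by 0.37 (adjusted p = 0.697).

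The called members of the lists of fat absorption and of fatty acid oxidation were all lower. Outside these lists, Slc27a5 was lower, and Fabp12, Plb1 and Acad9 were higher. Over all genes, 4.66% were called lower and 4.21% higher. Of 25 tested genes of fat absorption, 3 were lower and none higher, with a median of -0.15, and 1 of them, Dgat2, had a call left only without Wistar 2 or GK-Sham-PF 5. Pnliprp2, a lipase, fell by 2.13 (adjusted p = 0.00138), with 6.72 to 8.12 in Wistar and 4.66 to 5.74 in GK-Sham-PF, and Scarb1, a receptor for lipoprotein cholesterol, fell by 1.12 (adjusted p = 0.00221). Of 37 tested genes of fatty acid oxidation and ketone formation, 5 were lower and none higher, with a median of -0.06.

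Bdh1, which interconverts the ketone bodies, gave 10.43, 10.53, 10.55, 10.57 and 10.29 in Wistar 1 to 5 and 8.62, 8.54, 8.97, 8.80 and 9.18 in GK-Sham-PF 1 to 5. It fell by 1.65 (SE 0.12, adjusted p = 1.84e-07) without overlap. Eci2, Echs1, Acaa1a and Ehhadh, all enzymes of beta-oxidation, fell by 0.78, 0.63, 0.42 and 0.38, with no call for Acaa1a without Wistar 1 or 4 or GK-Sham-PF 3 or 4.

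None of 21 tested genes of sterol synthesis was called by limma, with a median of 0.19 (6 at an unadjusted p under 0.05, and 1 by Tukey's test). Of 21 genes of sterol regulation and efflux, 2 were higher and 2 lower, Srebf1 and Lipa (a call left only without Wistar 2 or GK-Sham-PF 1 or 5). Stard4, a cholesterol carrier of the cytosol, gave 8.89, 9.22, 8.79, 9.09 and 8.93 in Wistar 1 to 5 and 9.94, 10.00, 9.92, 9.73 and 9.78 in GK-Sham-PF 1 to 5, a rise of 0.89 (adjusted p = 0.000145). Srebf1, a switch for lipid synthesis genes, was 0.65 lower (adjusted p = 0.0282), with no call without Wistar 1, 4 or 5 or without GK-Sham-PF 2 or 4. Of 16 genes of fatty acid synthesis and desaturation, 2 were lower, Me1 (-0.55, adjusted p = 0.0305, no call without Wistar 1, 4 or 5 or GK-Sham-PF 3, 4 or 5) and Acly (-0.52, adjusted p = 0.0439, a call left only without GK-Sham-PF 2 or 3). Acly has no value on the GK-Sham-PF 1 array, where its spot was left out.

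Few sugar and energy genes were called. Among 12 tested genes of sugar digestion and transport, Amy1 alone was called. Outside that list, Slc2a10, of the glucose carrier family, was 2.17 higher with overlapping groups and a Wistar mean of 4.18 (adjusted p = 0.00322). Its other probe differed by 0.90. Sucrase-isomaltase (Si) differed by 0.08, lactase (Lct) by 0.12 and the sodium-glucose carrier Slc5a1 by -0.02, all without a call. Of 25 glycolysis genes, Eno2 was higher (0.58, adjusted p = 0.00738) and Pdk1, a brake on pyruvate oxidation, lower (-0.50, adjusted p = 0.00141). Of 16 genes of gluconeogenesis and glycogen, 2 were lower, Pc, pyruvate carboxylase (-0.62, adjusted p = 0.00368), and Fbp1 (-0.28, adjusted p = 0.0417, a call left only without Wistar 5 or GK-Sham-PF 1 or 5). G6pc1, glucose 6-phosphatase, differed by 1.75 without a call (adjusted p = 0.197). The tricarboxylic acid cycle list held 1 higher of 27, Cs (a call left only without Wistar 2 or 4), and 1 lower, Idh2 (only without Wistar 3 or GK-Sham-PF 4). The respiratory chain list held 1 higher of 43, Ndufa8 (only without Wistar 2 or GK-Sham-PF 2 or 5), and 1 lower, Ndufb8 (without any 1 array it had no call). Their medians were 0.04 and 0.06. None of 25 genes of protein digestion and amino acid transport was called by limma (6 at an unadjusted p under 0.05, and 1 by Tukey's test).

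Of 27 genes of the insulin and IGF axis, 3 were higher and 1 lower, against 4.21% and 4.66% of all genes. Socs2, a brake on growth hormone signals, fell by 1.05 (adjusted p = 0.000363), with 7.33 to 7.99 in Wistar and 6.32 to 6.86 in GK-Sham-PF. Txnip, which rises with glucose in many cells, was 0.65 higher (adjusted p = 0.00966), with 11.27 as the highest Wistar value and 11.43 as the lowest in GK-Sham-PF. Irs2 (0.69, adjusted p = 0.0241, no call without Wistar 1 or 2 or GK-Sham-PF 2, 3 or 4) and the insulin-degrading enzyme Ide (0.39, adjusted p = 0.0236, no call without Wistar 1, 2 or 4 or GK-Sham-PF 3) were higher. The higher count was 1 without Wistar 1, without Wistar 2 or without GK-Sham-PF 3.

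Npy, a neuropeptide that slows secretion and motility, gave 10.40, 10.61, 10.89, 9.92 and 10.39 in Wistar 1 to 5 and 11.39, 11.70, 11.49, 11.76 and 11.10 in GK-Sham-PF 1 to 5 (1.05, adjusted p = 0.00167). Galanin (Gal) was 0.86 higher (adjusted p = 0.0021) and Vip 0.71 higher (adjusted p = 0.0242, no call without Wistar 1, 2 or 4 or GK-Sham-PF 2, 3 or 4). Ghrl, ghrelin, was 1.30 lower (adjusted p = 0.0201), and it was not called without Wistar 4, GK-Sham-PF 2 or GK-Sham-PF 4. Of the hormones linked to glucose control, Gip differed by -0.04, Gcg, which encodes GLP-1, by -0.39 (adjusted p = 0.0642) and Pyy by -1.20 (adjusted p = 0.0535), none of them called.

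Markers of immune cells were called in part. Of 18 T and NK lymphocyte markers 3 were higher and 1 lower, against 4.21% and 4.66% of all genes, with a median of 0.10. The lower one, Icos, was not called without Wistar 4 or 5 or GK-Sham-PF 3, 4 or 5, and Gzma, 1 of the higher, had a call left only without Wistar 3 or GK-Sham-PF 4 or 5. Granzyme B (Gzmb) gave 9.003, 9.15, 9.95, 9.12 and 9.47 in Wistar 1 to 5 and 10.16, 10.08, 10.62, 10.51 and 10.64 in GK-Sham-PF 1 to 5 (1.06, adjusted p = 0.00131). The NK receptor Klrd1 rose by 1.06 (adjusted p = 0.0043). The B and plasma cell markers Cd79a, Cd79b and Mzb1 were higher, 3 of 9 tested, but none was called without Wistar 1, 2 or 4 and 1 was without Wistar 5, and GK-Sham-PF 1 was the highest array for the B cell receptor genes. Mzb1 had a call left only without GK-Sham-PF 5.

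Of 16 macrophage and dendritic cell markers, 3 were lower and none higher, against 4.66% and 4.21% of all genes. Itgam, the CD11b integrin, gave 7.07, 6.71, 6.85, 6.86 and 7.41 in Wistar 1 to 5 and 4.96, 5.19, 5.01, 5.25 and 4.08 in GK-Sham-PF 1 to 5 (-2.08, SE 0.21, 4.24-fold, adjusted p = 6.24e-06). The dendritic cell receptor Flt3 fell by 1.02 (adjusted p = 0.00666) and the mannose receptor Mrc1 by 0.58 (adjusted p = 0.0112). The macrophage genes Cd68 (-0.08), Csf1r (0.29), C1qa (0.11) and Aif1 (-0.04) were not called, and the median of the list was -0.06.

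Few markers of other cell types were called. None was called by limma among 8 goblet, 11 Paneth, 10 tuft, 10 smooth muscle, 5 gastric and Brunner gland and 4 red blood cell markers, of which 2, 5, 1, 0, 0 and 3 had an unadjusted p under 0.05 and 1, 2, 1, 0, 0 and 1 passed Tukey's test without adjustment over genes. The median of the red blood cell list was 0.94, and its mean level ran from 8.63 to 9.41 in Wistar and from 9.23 to 10.21 in GK-Sham-PF. Of 7 fat cell markers 1 was called, Cidea (0.77, adjusted p = 0.0094), and the fat hormone Adipoq spread from 5.28 to 10.08 in Wistar and from 5.74 to 9.88 in GK-Sham-PF. The part that fat or blood in the samples had in the results was not tested. None of 23 genes of the ER stress response was called by limma (4 at an unadjusted p under 0.05, and 3 by Tukey's test).

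Of the smaller changes in nutrient uptake, the calcium carrier protein S100g fell by 0.80 (adjusted p = 0.00435), with 13.87 to 14.38 in Wistar and 12.95 to 13.65 in GK-Sham-PF. The other members of the list of iron, calcium and vitamin uptake with a call, Lrat and Slc46a1, brought it to 3 lower of 26. That count was 1 without any 1 of 8 arrays (Wistar 1, 2, 4 or 5, or GK-Sham-PF 1, 2, 3 or 4). Scnn1g, a subunit of the epithelial sodium channel, rose by 1.20 (adjusted p = 0.00225).

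Complement, matrix and stromal genes held a few calls. Of 28 tested genes of complement and coagulation, 2 were higher and 2 lower, against 4.21% and 4.66% of all genes. The complement protease C2 rose by 0.85 (adjusted p = 0.000391) and thrombomodulin (Thbd), a brake on clotting, by 0.68, whereas the clotting inhibitor Tfpi fell by 0.44 (adjusted p = 0.00879). Of 35 matrix genes, 2 were higher, Spp1 and the metalloprotease Mmp10 (0.95, adjusted p = 0.00288). Mfap5, a protein of elastic fibres (0.99, adjusted p = 0.00453), was the called gene of 11 fibroblast markers, and Plvap, which forms the diaphragms of capillary pores (0.59, adjusted p = 0.0165), that of 7 endothelial markers. Without GK-Sham-PF 5 the fibroblast count was 3. Of 12 mast cell and eosinophil markers 2 were higher, Mcpt8 and Mcpt1, and 1 lower, the eosinophil receptor Ccr3 (-0.89, adjusted p = 0.0166). That higher count was 5 without GK-Sham-PF 5 and 1 without any 1 of the other arrays except Wistar 3.

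Other lists held calls that were mostly lost without 1 array. Of 27 genes of regional identity along the gut, 2 were lower, among them Hoxc9, a gene of position along the body axis (-0.51, adjusted p = 0.0451, a call left only without GK-Sham-PF 2 or 4). Of 16 clock genes, Cry2 was lower (-0.75, adjusted p = 0.0315, a call left only without Wistar 2 or 3 or GK-Sham-PF 1), and of 9 crypt markers, Ascl2, a regulator of the stem cell (-0.68, adjusted p = 0.0458, a call left only without Wistar 2 or 5 or GK-Sham-PF 5). Tph1, which makes serotonin, was 0.46 lower (adjusted p = 0.0322, no call without Wistar 1, 2 or 4 or GK-Sham-PF 2, 3 or 4), with a difference of 0.04 at its other probe. It was 1 of 2 lower among 19 enteroendocrine markers. Ffar2, a receptor for short-chain fatty acids, was 0.71 lower (adjusted p = 0.0221, no call without Wistar 2 or 5 or GK-Sham-PF 3), in a list of 24 gut hormone genes with 3 higher and 2 lower. The list of 35 ion and water transport genes had 2 higher, Aqp3 and Scnn1g, and 1 lower, Kcne3 (a call left only without GK-Sham-PF 1 or 2), and that of 13 markers of enteric nerve and glia had 1 higher, Vip.

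**Figure D3:**
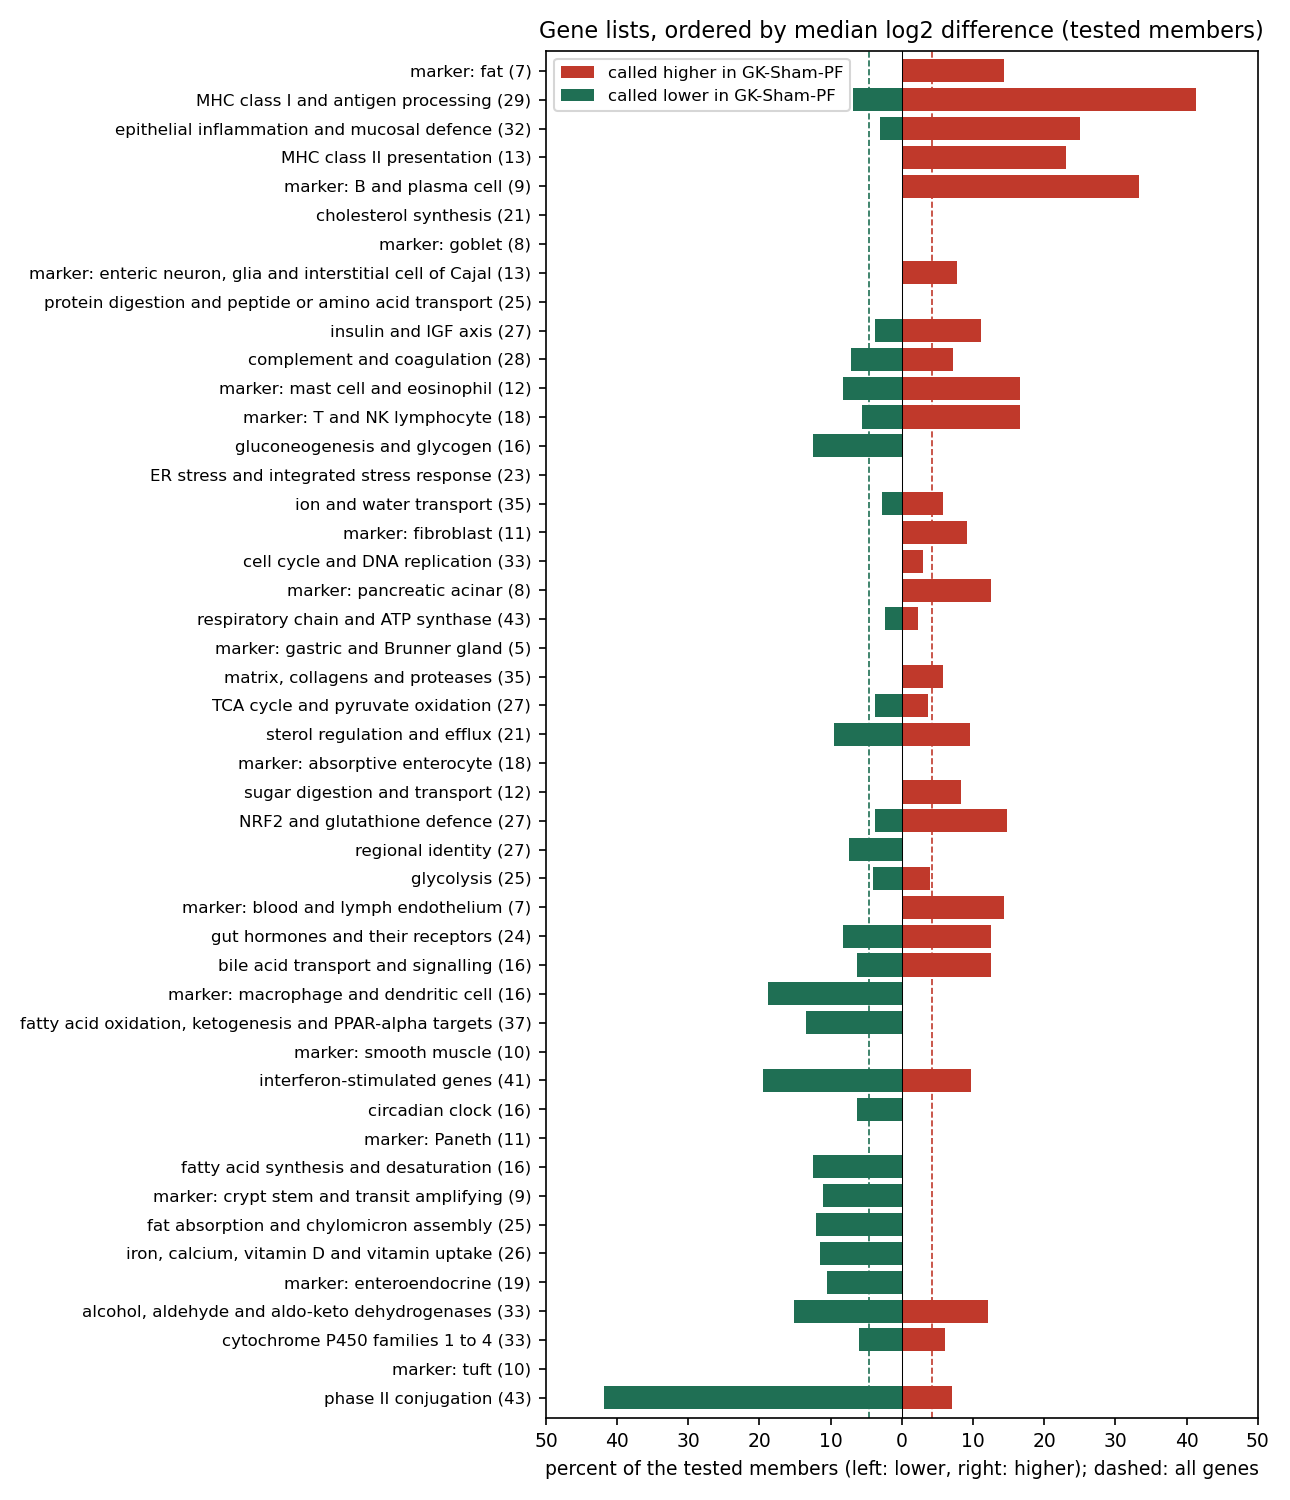
Each bar gives, for 1 list of genes, the percentage of its tested members that were called lower (left) or higher (right) in GK-Sham-PF, with the dashed lines at the percentages over all 13049 genes (4.66% lower and 4.21% higher). Phase II conjugation reaches farthest among the larger lists on the left with 18 of 43, and MHC class I on the right with 12 of 29.

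Called genes also lay beside each other on the chromosomes. Of the 12582 tested genes with a position in the files (rn4), 1094 were called. The share was highest on chromosome 20, which carries the MHC, with 53 of 362 genes (14.6%, Wilson 95% interval 11.4 to 18.7%, which treats genes as independent), and lowest on chromosome 7, with 6.36%. With slide as a fixed block it was 2.21% on chromosome 20 and 1.39% over all genes. Runs were listed where 4 or more of 6 neighbouring tested genes were called, with at most 1 Mb between neighbours. There were 11 runs that held 101 tested genes, 60 of them called, and 1 run with slide as a fixed block. No test was made of the runs, many of which are families whose probes may share targets.

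The glucuronosyltransferase run at chr14:21184021-22805204 held 7 called genes of 11, all lower. They were Sult1b1, Ugt2a3, Ugt2b15, Ugt2b37, Ugt2b35, Ugt2b7 and Ugt2b10, and the gene at its end, Ythdc1, differed by 0.03. The Itgam run at chr1:187210563-187464991 held 4 called genes of 7, all lower, with Itgad, another integrin chain, at -0.53 (adjusted p = 0.00456), Prss36 at -0.51 and Pycard, an inflammasome adaptor, at -0.31 (a call left only without Wistar 3 or GK-Sham-PF 3).

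The run at chr15:34042549-35653329 holds mast cell proteases and granzymes, which are made by mast cells, NK cells and cytotoxic T cells. Of its 17 tested genes 9 were higher and 1 lower. Gzmc rose by 1.61 (adjusted p = 0.000497), Gzmf by 1.11 (adjusted p = 0.000164), Mcpt8l2 by 1.08 (adjusted p = 0.00567) and Mcpt8 by 0.73 (adjusted p = 0.000537). Cma1, the mast cell chymase, fell by 1.23 (adjusted p = 0.0144). The genes just outside the family, Sdr39u1 and Cenpj, differed by -0.02 and 0.01.

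The aldo-keto reductase run at chr17:76971296-77341436 changed in both directions within 7 genes. Akr1c13 rose by 2.41 (adjusted p = 1.26e-07) and Akr1c19 by 1.84, whereas Akr1c12 fell by 3.46 (adjusted p = 3.13e-07), Akr1c12l1 by 0.97 and Akr1e2 by 0.50 (no call without Wistar 1, Wistar 4 or GK-Sham-PF 2). Akr1c14 and Akr1c15 differed by 0.03 and -0.10 without a call. Akr1c12, which the files list as Akr1c13, gave 8.21, 7.95, 7.42, 8.37 and 8.15 in Wistar 1 to 5 and 4.91, 5.13, 4.82, 4.50 and 3.46 in GK-Sham-PF 1 to 5.

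Runs of called genes also lay in the MHC. At chr20:3469045-3626670, 6 of 10 class I region genes were called, 5 higher and 1 lower. At chr20:4254360-4733021, 6 of 10 were called, 4 higher and 2 lower. The second held the butyrophilin-like genes, whose products act on intraepithelial T cells: Btnl7 rose by 1.96 (adjusted p = 0.00016), Btnl8 rose by 1.40 (adjusted p = 0.000219) and their neighbour Btnl3 fell by 1.46 (adjusted p = 1.88e-06).

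The other 5 runs held 4 or 5 called genes each, and the genes given from them were chosen after their values were seen. At chr14:5464153-6246950, Abcg3 (1.01), Abcg3l2 (1.30) and Mpa2l (at least 2.4-fold) rose and Zfp658l1 fell by 1.42 (adjusted p = 2.94e-06). At chr3:156107231-156860476, Slc35c2, a nucleotide sugar carrier, fell by 1.88 (adjusted p = 8.49e-08). At chr6:23952057-25003955, Plb1, a brush border phospholipase, was 3.11 higher with overlapping groups (adjusted p = 0.0414, a call left only without Wistar 3 or GK-Sham-PF 1 or 5). At chr6:127480986-128161236, Ifi27 rose and Serpina1 fell by 0.75 (adjusted p = 0.00649), and at chr10:13102638-13409002, Zg16b rose by 1.55 (adjusted p = 0.00128) and Prss41 fell by 1.15 (adjusted p = 0.00652).

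**Figure D4:**
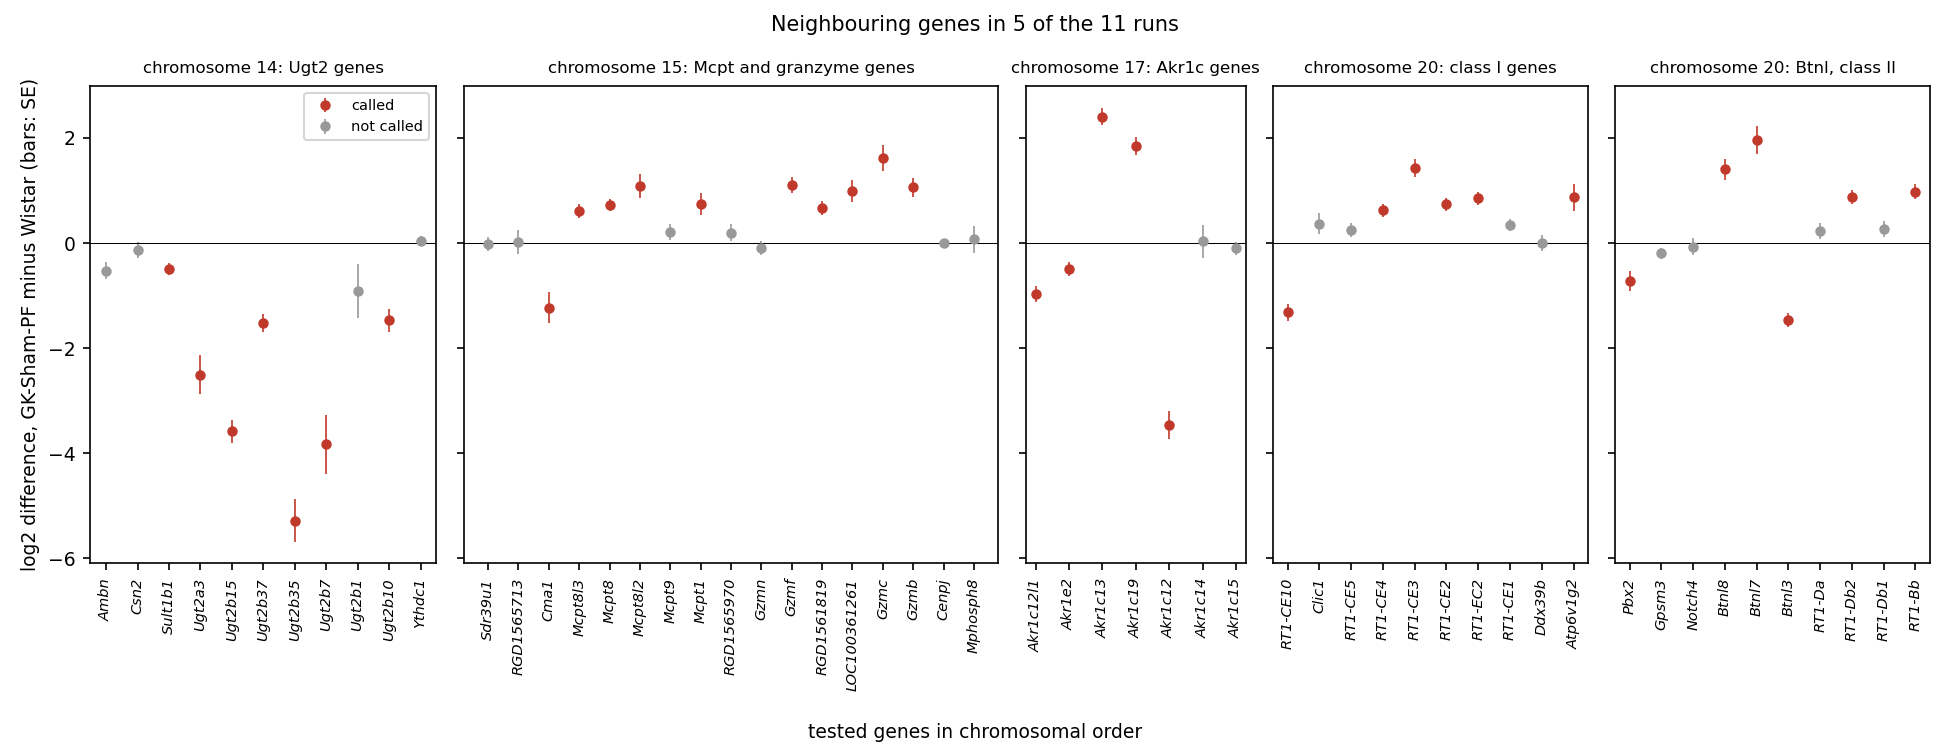
Log2 differences (GK-Sham-PF minus Wistar) of the tested genes in 5 of the 11 runs, in chromosomal order, with bars for the standard error and colour for the call. All 7 called genes of the glucuronosyltransferase run lie below 0, whereas the aldo-keto reductase run holds 2 called genes above and 3 below it.

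Genes with several probes gave a direct reading of how far a difference depends on the probe. Of the called genes, 249 had another tested probe. Where a gene had several others, the one that agreed least with the used probe was taken. In 42 of these 249 genes the other probe differed in the opposite direction. In 104 (41.8%) it went the other way or showed under 50% of the log2 difference. Over all 3232 tested genes with another tested probe, called or not, the count was 1552 (48.0%). Most of these were not called and differed little between the groups, so the shares are not directly comparable. Among the 9 genes with another tested probe and a called difference of 4-fold or more, the count was 5, 2 of them in the opposite direction.

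Adgrb1, listed as Bai1, a receptor that recognizes dying cells, is 1 of these. Its used probe gave 2.78, 3.81, 2.79, 3.19 and 3.60 in Wistar 1 to 5 and 6.95, 6.95, 7.28, 6.91 and 7.39 in GK-Sham-PF 1 to 5, a rise of 3.86 (SE 0.19, adjusted p = 2.01e-09). Its other probe gave 4.83, 4.79, 5.25, 4.70 and 4.56 in Wistar 1 to 5 and 4.88, 4.40, 4.55, 4.85 and 4.58 in GK-Sham-PF 1 to 5, a difference of -0.18. The groups were apart at the first probe and overlapped at the second. The first was well above background on 2 of 5 Wistar arrays, so the size of the rise is uncertain. Both sequences are shown because the rise rests on the first alone.
Adgrb1, used probe (chr7:112636317-112636953): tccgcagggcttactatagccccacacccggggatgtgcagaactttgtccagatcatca
Adgrb1, other probe (chr7:112680828-112680887): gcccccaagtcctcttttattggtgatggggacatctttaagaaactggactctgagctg

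Rps7, a protein of the small ribosomal subunit, differed in size between its probes. It was picked after its values were seen, as were the other pairs of probes below. Its used probe gave 15.43, 15.61, 15.69, 15.60 and 15.51 in Wistar 1 to 5 and 14.70, 14.92, 15.31, 14.86 and 15.33 in GK-Sham-PF 1 to 5, a difference of -0.54. Its other probe gave 12.12, 12.12, 12.51, 12.36 and 12.29 in Wistar 1 to 5 and 5.72, 5.62, 6.62, 6.07 and 6.26 in GK-Sham-PF 1 to 5, a difference of -6.22. The probes share a run of 24 bases and diverge after it. Capitals mark the part of the run that lies in the first 30 bases of each. In the used probe the run continues past the bases shown.
Rps7, used probe (chr6:46515209-46515268): gtaccagttccTCAGCTGAAATCTTTCCAG
Rps7, other probe (no position in the files): TCAGCTGAAATCTTTCCAGAAAATggccaa

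Ugt2b37 fell at both of its probes, by 1.52 at the used one and by a fitted 6.98 at the other, which was well above background on 2 of 5 GK-Sham-PF arrays. The other probe gave 10.75, 10.96, 10.51, 11.01 and 10.56 in Wistar 1 to 5 and 3.89, 3.93, 4.19, 3.00 and 3.89 in GK-Sham-PF 1 to 5. Their first 30 bases are shown since the size of the fall, though not its direction, depends on which is read.
Ugt2b37, used probe (chr14:22422764-22422822): atagatgcaactttacagcagacaacttga
Ugt2b37, other probe (chr14:22420991-22421050): cagtcattgcagcccttgctgtaaaatgct

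Further pairs went the same way in some genes and parted in others. Acad9, an acyl-CoA dehydrogenase, rose by 0.82 at its used probe, and its other probe was well above background on 0 of 5 Wistar and 5 of 5 GK-Sham-PF arrays. Bad, a protein of cell death, differed by 2.75 and 0.63. Cd47, a signal against engulfment, was 2.16 higher at 1 probe and differed by -0.29 at another. Ifi27l2b and Acaa1a, at 0.48 and -0.42, differed by 0.17 and -0.10 at another probe. RT1-A2 was 1.07 higher at 1 probe and 1.94 lower at another, and RT1-S3, 1.53 higher at its used probe, differed by -0.33 at another. Art2b and Tlcd4 gave nearly the same difference at both probes.

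**Figure D5:**
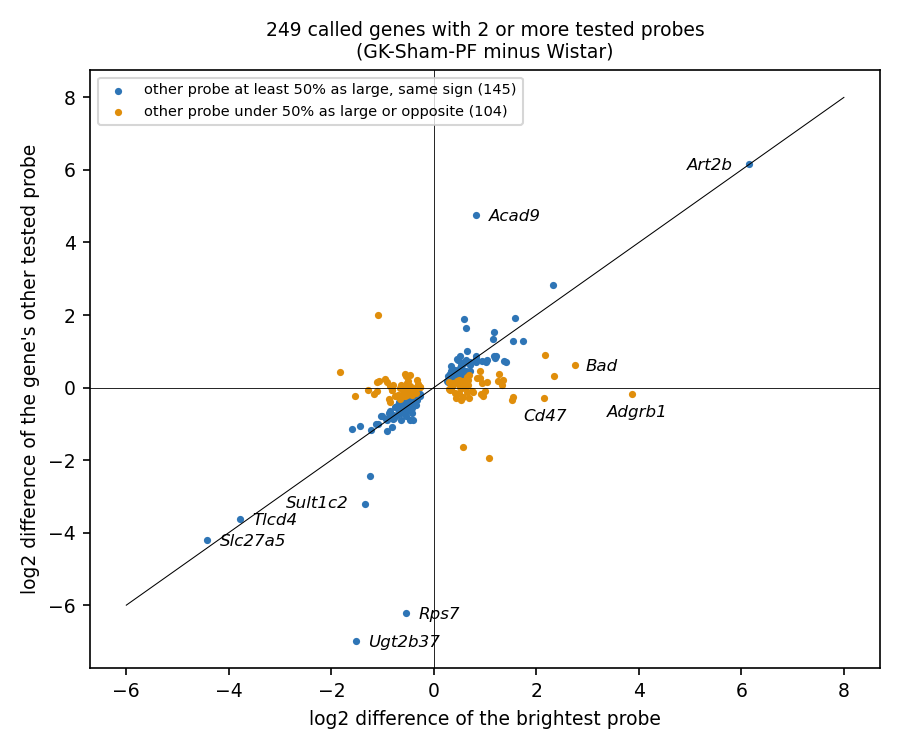
Each point is 1 of the 249 called genes with 2 or more tested probes. The horizontal axis gives the log2 difference of its brightest probe. The vertical axis gives that of its other tested probe, or of the least agreeing one where there were several. Points on the diagonal line have equal differences at both probes, the 42 in the opposite quadrants differ in sign, and Art2b lies on the line whereas Adgrb1 and Rps7 lie far from it.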

How the data were processed

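Agilent whole rat genome arrays (1 dye, Cy3) read the jejunal RNA of 15 male rats, each on an array of its own. Groups follow the sample titles. The authors deposited the intensity values of each array as Feature Extraction wrote them (version 10.7 by the submitters' processing notes). These are the processed signal, with background and spatial trends removed within an array but no scaling between arrays, with the mean signal and the local background used for an alternative. Flags of other kinds deposited in the same files mark controls, outlier spots and spots well above background. The series matrix holds log2 values that the authors quantile-normalized between arrays.

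Of 45018 spots per array, 43379 were not controls, and 52 to 103 outlier spots were left out on the 10 arrays. Spots of a probe were averaged, log2 of the processed signal was quantile-normalized, and 22586 of 41012 probes were named, 17956 by accession, 2871 by symbol and 519 by synonym in the RefSeq table, with 1240 file names kept. Probes well above background on all arrays of at least 1 group were tested (17068), each gene by its brightest, giving 13049 genes, 18 of which lack a value on at least 1 array. Positions are those of the array files (rn4).

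A 3-group linear model was fitted over all 15 arrays with limma 3.58.1 in R 4.3.3 (lmFit, contrasts.fit, eBayes), and p-values were adjusted over the 13049 genes after Benjamini and Hochberg. Adjusted p-values in the text are from this fit unless another setting is named beside them. The median standard error was 0.15. Files were read with the data.table package (1.17.8) and with pandas 2.3.3 in Python 3.11.15, probes were aligned with Biopython 1.88 and figures were drawn with matplotlib 3.10.9. On simulated data for this comparison over 13049 genes, 46.3% of genes changed by 0.5 on the log2 scale, 76.1% of those changed by 1 and 97.0% of those changed by 2 were recovered. The simulation changed 67, 67 and 66 genes by these amounts, far fewer than were called here. It used independent normal noise without a slide effect or a background floor, and 14 unchanged genes were called. The shares hold for that setting only. Arrays give no read depth, and their number limits the precision.

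Genes were named by rule: the 15 largest rises and the 15 largest falls among called genes without overlap, up to 10 genes measured in 1 group only in each direction, up to 4 called members of each list with the smallest adjusted p, and defining members without a call. Other genes, further called members of lists, members of runs and pairs of probes were chosen after their values were seen. The members of the comparison and the 48 lists were chosen with earlier results of these data known. Alternatives covered the scaling, background, filter, probe, test, slide, replicate number, arrays in the fit and each array left out. Some genes are not reported singly here and stay in the counts. Probes without a gene name and the gastric bypass contrasts were not used here.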

Additional observations from a re-analysis of the deposited data

Results flagged for a closer look

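In 25 of 264 sets of 5 arrays (the genes named by rule, and array brightness, in each group), the highest or lowest array stood apart from the other 4 by more than 0.710 of the range, where chance sets apart about 1 in 20. GK-Sham-PF 5 was the array in 7 of them, Wistar 1, 2 and 3 in 4 each, GK-Sham-PF 1 and 2 in 2 each, and GK-Sham-PF 4 in 1. The other set was the brightness before normalization, where the 75th percentile of GK-Sham-PF 5 was 208.4.

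GK-Sham-PF 5 was the lowest of its group for St6galnac1 (13.71), Itgam (4.08), Mpa2l (3.60), Ces2c (10.98) and RT1-S3 (13.06) and the highest for Cs (15.29) and Cyp2c6v1 (6.85). GK-Sham-PF 1 was the highest for Cd79a (6.51) and Cd79b (8.99), GK-Sham-PF 2 the highest for Gpx3 (9.02) and the lowest for Psmb9 (14.03), and GK-Sham-PF 4 the lowest for Rdh7 (9.27).

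In Wistar, replicate 1 was the highest for St6galnac1 (2.33), Vom2r10 (1.87), Cyp4f5 (11.13) and Akr1b10 (2.90), and replicate 2 for Ifit1 (3.02), S100a8 (3.55) and S100a9 (6.16), and the lowest for Cct8l2 (1.72). Replicate 3 was the highest for RT1-M3-1 (10.05) and Hoxc9 (5.50) and the lowest for Eci2 (11.57) and Eif2ak2 (8.56). In each of these genes but Cyp2c6v1 the 2 groups did not overlap with the array included.

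Outside the named genes, 870 of 10823 tested probes without a gene name (8.04%) were called by the same fit, beside 8.87% of the named genes.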

How the results depend on the processing

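The 4 counts over all genes stayed within 1.5 times their values under 75th percentile scaling, the authors' matrix, both changes of the filter on dim probes, the mean of a gene's probes, the 10 arrays alone and slide as a random block. Normexp background left 134 changes of 2-fold or more in place of 329. The methods' Tukey test called 1920 genes without adjustment over genes (924 higher, 996 lower), and 717 after Benjamini-Hochberg adjustment (350 and 367). Slide as a fixed block, which compares the groups only through slides that hold more than 1 group, called 181 genes (88 higher, 93 lower), 161 at 2-fold or more. Leaving out 1 array gave 870 to 1222 calls, 407 to 594 higher, 449 to 628 lower and 297 to 345 at 2-fold or more. Without the dim arrays, Wistar 3 and GK-Sham-PF 5, 1296 genes were called.

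The share called on chromosome 20 was 20.2% by the unadjusted Tukey test and 2.21% with slide as a fixed block. Runs of neighbours numbered 49 and 1 in these fits, 7 with probes well above background on all 15 arrays, 18 without the dim arrays, and 8 to 15 with 1 array left out. These fits for runs, and those that left out 1 array for genes measured in 1 group only, were chosen after seeing the data. The latter gave 18 to 30 genes for GK-Sham-PF (30 without Wistar 1) and 9 to 14 for Wistar (14 without GK-Sham-PF 4).

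With probes well above background on all 15 arrays, Adgrb1 turned to -0.18 (adjusted p = 0.608), since its other probe then stood for it. Of 131 genes named by rule, 129 were called, and the calls of 84 were lost with slide as a fixed block, 33 by the adjusted Tukey test and 13 with normexp background; 30 lost theirs without at least 1 array. The cause of these losses was not tested.

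Replicate numbers did not pair the arrays: the correlations of same-numbered arrays were -0.06, 0.18, -0.15, -0.11 and -0.28, and no array correlated best with its own number. With the replicate number as a block, 859 genes were called (405 higher, 454 lower, 312 at 2-fold or more). Probes near background limit the size of the largest folds, and 5 arrays a group limit small changes.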
